A study of Drosophila melanogaster with 4 samples.

Results

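CG15096, MFS14 and dmGlut encode membrane transporters of the major facilitator superfamily that resemble the SLC17 carriers of mammals. They were chosen by name: a spot of the array counted when its annotation gave 1 gene and that gene was CG15096, MFS14 or dmGlut, and the 2 neighbouring spots of a clone were averaged. This gave 4 clones, 1 each for CG15096 and MFS14 and 2 for dmGlut, so that 3 genes of the 3769 with a value on at least 1 array are described. All 4 clones had a value on some array, the clones of CG15096 and MFS14 on arrays 1, 2 and 3 and both dmGlut clones on arrays 1 and 2. None had a value on array 4. The genes were picked with their ratios in these data known, so their ratios between drug and normal food are given as a description. The fits across all features below include CG15096 and MFS14, and nothing is read from their outcome there.

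Heads of male Drosophila melanogaster fed ethosuximide, a drug against absence seizures that blocks calcium channels of the T type, were compared with heads of males kept on normal food. Both groups were unmated Oregon-R wild type flies, 10 to 11 days old at the start and kept at 30 flies per vial for 3 days, and the food of the treated group held 3.48 mg/ml of the drug. Each of 4 spotted cDNA arrays of 2 colours carried 1 pool of heads from each group. The drug sample was in Cy5 on arrays 1 and 2 and in Cy3 on arrays 3 and 4. The sample titles number the arrays as replicates 1 to 4, and each was taken as 1 replicate. The titles do not say whether the swapped arrays held new pools. Whole heads hold brain, eye, fat body and muscle, and in such bulk RNA fewer cells of a type and less RNA per cell cannot be told apart.

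Transporters of the SLC17 type carry organic anions across membranes. In mammals the family holds carriers first described as sodium-phosphate cotransporters, the lysosomal sialic acid carrier sialin, and the vesicular glutamate transporters that load synaptic vesicles. Flies have many more genes of this type, most of them without an assigned substrate. The name dmGlut stands for dietary and metabolic glutamate transporter. MFS14 was earlier named for a lethal mutation, and CG15096 carries no name beyond its number. In the RefSeq annotation of Release 6 the protein-coding genes MFS15, MFS14 and CG15096 follow each other on chromosome arm 2R, and dmGlut lies beside CG18788, also on the list of SLC17-like genes used below, on arm 2L.

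The deposited value of a spot is a ratio of the channels, taken here as log2. The numerator is not stated. Since the labels name Cy5 as channel 1, values were read as Cy5 over Cy3, and arrays 3 and 4 had their sign turned to give drug over normal food. The direction is therefore unsettled, and "above" and "below" 0 change places if the numerator was Cy3. The other reading takes all columns as already holding drug over normal food, with no sign turned. Of the 13824 clones, those left with a value by the filters the authors set on spots numbered 5095, 3169, 1101 and 812 on arrays 1 to 4. Over the 980 features (clones) measured on at least 3 arrays, the turned column medians were 0.74, 0.16, -0.24 and -0.63. Centred ratios below are relative to these medians, and each member is given both ways. Precision is limited by how few arrays there are.

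CG15096 had the highest ratio of drug over normal food among the 4 clones. Its deposited values were 1.56 on array 1, 0.83 on array 2 and -0.91 on array 3. It was positive on both arrays with the drug in Cy5 and negative on the array with the drug in Cy3. Its duplicate spots lay close together, at 1.50 and 1.63 on array 1, 0.74 and 0.93 on array 2, and -0.98 and -0.84 on array 3. Those gaps of 0.13, 0.19 and 0.13 compare with median gaps of 0.24, 0.18 and 0.16 between the duplicate spots of all clones on these arrays.

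Within each array CG15096 stood near an end of the distribution, a measure that does not depend on the column's offset. It ranked 127th from the top of 5095 clones on array 1, 38th from the top of 3169 on array 2 and 45th from the bottom of 1101 on array 3. Turned to drug over normal food, the mean was 1.10 ± 0.40 (SD, n = 3), or 2.15-fold, above 0 on 3 of 3 arrays. After centring the arrays gave 0.82, 0.67 and 1.15, with a mean of 0.88 ± 0.24 (SD, n = 3), or 1.84-fold. By dye, the centred mean was 0.75 over the 2 arrays with the drug in Cy5 and 1.15 on the 1 with the drug in Cy3. In the other reading its arrays disagreed in sign, with a mean of 0.50 ± 1.27 (SD, n = 3) and a centred mean of 0.12 ± 1.10 (SD, n = 3).

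MFS14, the neighbour of CG15096 on the chromosome, showed the same order of deposited values over arrays at a smaller size. Its deposited values were 1.17, 0.59 and -0.36 on arrays 1 to 3. As for CG15096, the sign followed the dye of the drug sample. Its duplicate spots were 1.24 and 1.11 on array 1, 0.64 and 0.54 on array 2, and -0.26 and -0.47 on array 3. It ranked 706th from the top on array 1, 138th from the top on array 2 and 137th from the bottom on array 3, further from the ends than CG15096 on each.

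The turned mean of MFS14 was 0.71 ± 0.42 (SD, n = 3), or 1.63-fold, and above 0 on 3 of 3 arrays. After centring the arrays gave 0.43, 0.43 and 0.60, with a mean of 0.49 ± 0.10 (SD, n = 3), or 1.40-fold. The spread over arrays was smaller after centring than before. By dye, the centred mean was 0.43 with the drug in Cy5 and 0.60 with the drug in Cy3. In the other reading the mean was 0.47 ± 0.78 (SD, n = 3), and 0.087 ± 0.60 (SD, n = 3) after centring, with 2 of 3 arrays above 0.

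**Figure D1:**
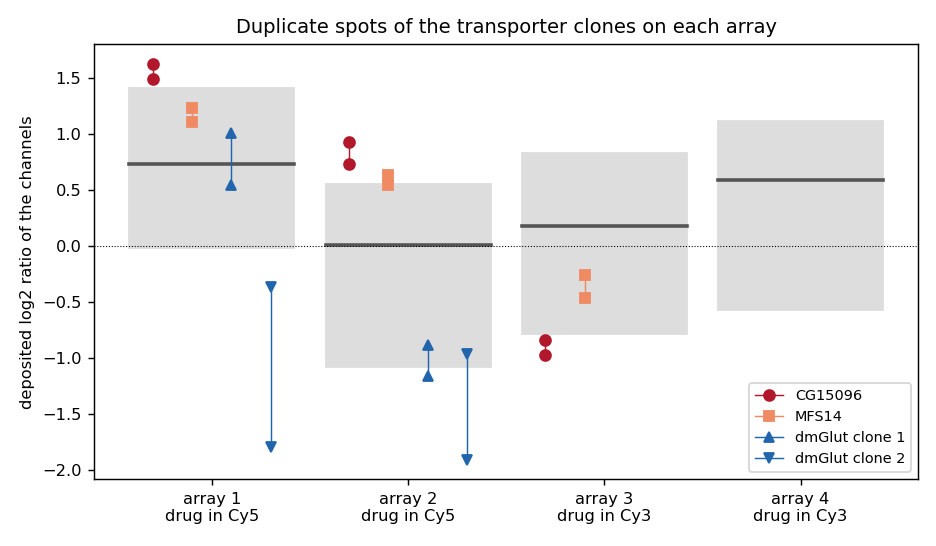
Deposited log2 ratio of the channels (vertical axis) for both duplicate spots of each clone, joined by a line, on the 4 arrays (horizontal axis); grey boxes span the 5th to 95th percentile of all clones of an array and the dark line is their median. CG15096 and MFS14 lie above the median on arrays 1 and 2 and below it on array 3, while dmGlut clone 2 lies below the median on both of its arrays with spots far apart.

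The difference between CG15096 and MFS14 within an array is free of the column's offset. In turned ratios CG15096 exceeded MFS14 by 0.39 on array 1, 0.24 on array 2 and 0.55 on array 3, a mean difference of 0.39 ± 0.15 (SD, n = 3). The sign was the same on every array that measured them. Without turning, the difference was -0.55 on array 3 and the mean 0.03 ± 0.50 (SD, n = 3). Whether the printed clone of 1 gene also binds the transcript of its neighbour was not tested, as no sequence of the clones was used here. MFS15, the third gene of this row, had a value on array 1 alone, 0.96 as deposited and 0.22 after centring, below MFS14 and CG15096 there.

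Set among the 779 features measured on arrays 1, 2 and 3, CG15096 had the 4th highest mean of centred ratios and MFS14 the 21st. A centred ratio above 0 on all of these arrays was found for 155 features, or 19.9% (percent of the 779), CG15096 and MFS14 among them, and a ratio below 0 on all of them for 164. Of the 779, 6 features had every centred ratio at or above 0.67, the lowest of CG15096, and 12 had every one at or above 0.43, the lowest of MFS14; each count includes the gene itself. The SD over arrays of CG15096 was larger than that of 55.3% of these features, and that of MFS14 larger than 15.4%. Read the other way, their SDs exceeded those of 99.6% and 93.2% of the features. These are places within a distribution from which the genes had been picked.

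**Figure D2:**
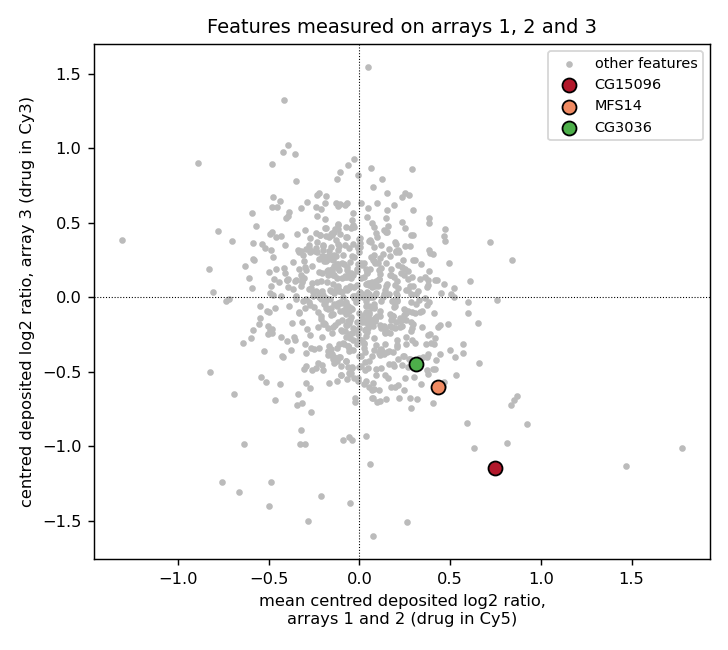
Centred deposited log2 ratios of the 779 features measured on arrays 1, 2 and 3, with the mean of arrays 1 and 2 (drug in Cy5) on the horizontal axis and array 3 (drug in Cy3) on the vertical axis; points are clones. CG15096, at 0.75 and -1.15, lies at the lower right edge, MFS14 nearer the centre at 0.43 and -0.60, and CG3036, another gene of the SLC17-like list, nearer still.

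In limma's one-class fit across all 980 features at an adjusted p (Benjamini-Hochberg) under 0.05, 5 features (0.51%) passed on the deposited values and 14 (1.43%) after centring. Of CG15096 and MFS14, 0 of 2 were among the former and 1 of 2, CG15096, among the latter. The genes were chosen from this contrast, so nothing is read from these counts or from the fits of CG15096 listed next. After centring CG15096 did not pass without array 1 or without array 3, with mean centred ratios of 0.91 and 0.75. Without array 2 or without array 4 it passed, at 0.99 and 0.88. When the arrays were centred on the 366 features measured on all 4 of them it did not pass, with a mean of 0.85. With a dye term in the model its ratios were 1.05 and 0.95 on deposited and centred values. For CG15096 that fit rests on 1 array with the drug in Cy3. Read the other way, 32 features (3.27%) passed on the deposited values, CG15096 and MFS14 not among them. After centring 0 passed limma's test in that reading, and 86 had a p under 0.05 before adjustment.

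If the columns are read as Cy5 over Cy3, the swap splits the ratios of a clone into a drug part and a dye part. On the deposited values both parts also hold the offsets of the columns. For CG15096 the drug part of the centred ratio was 0.95 and the dye part -0.20, and for MFS14 they were 0.52 and -0.09. On the deposited values they were 1.05 and 0.14 for CG15096 and 0.62 and 0.26 for MFS14. The sign of the dye part thus changed with centring. The drug part was thus the larger for both genes. In the other reading the names of the parts change places. With array 4 missing, the orientation with the drug in Cy3 rests on array 3 alone.

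Between the clones of dmGlut the ratios differed more than between CG15096 and MFS14. Clone 1 had deposited values of 0.78 on array 1 and -1.02 on array 2, and clone 2 had -1.08 and -1.44. On array 2 both clones were below 0, whereas on array 1 clone 1 lay at the middle of the array and clone 2 at its lower end. Clone 1 ranked 2354th from the top of 5095 on array 1 and 178th from the bottom of 3169 on array 2. Clone 2 ranked 9th and 70th from the bottom. Both arrays had the drug in Cy5, so for dmGlut drug and dye cannot be told apart, and the reading of the swapped columns does not enter its values.

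The mean of clone 1 was -0.12 ± 1.28 (SD, n = 2), or -0.57 ± 0.86 (SD, n = 2) after centring, and its arrays lay on either side of 0. The mean of clone 2 was -1.26 ± 0.25 (SD, n = 2), or 2.40-fold lower in the channel of the drug sample, Cy5 on both arrays. After centring it was -1.71 ± 0.16 (SD, n = 2). Clone 2 was below 0 on 2 of 2 arrays. The clones differed by 1.87 on array 1 and by 0.42 on array 2. Over genes with a pair of measured clones, the median difference was 0.36 on array 1 (169 genes) and 0.26 on array 2 (87 genes), and 1 gene on array 1 had clones further apart than those of dmGlut, against 36 genes on array 2. The annotation gives both clones the same gene, and which of them follows the dmGlut transcript was not tested.

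The duplicate spots of dmGlut clone 2 disagreed as well. They read -1.80 and -0.37 on array 1, a gap of 1.43, and -0.97 and -1.91 on array 2, a gap of 0.94. Those gaps were larger than in 96.9% and 95.0% of clones on these arrays. All 4 spots were below 0, but the SD of 0.25 over arrays was smaller than the gap within either array. For clone 1 the spots read 0.55 and 1.02 on array 1 and -0.88 and -1.16 on array 2. Neither clone reached the 3 arrays needed for the fit across features.

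Most other SLC17-like genes had values on few arrays or on none. The list held 24 genes beside CG15096, MFS14 and dmGlut, of which 15 were on the array, 10 had a value and 1, CG3036, was measured on at least 3 arrays. Of the 21 clones of the whole list 66.7% had a value on some array, against 45.9% of all clones. On at least 3 arrays 14.3% were measured, against 7.09% of all clones, and these were the clones of CG15096, MFS14 and CG3036. The percentages of the list include the clones of CG15096, MFS14 and dmGlut, genes picked with their ratios known and so with values. Beside these genes CG3036 alone was measured on at least 3 arrays, so no better coverage of the family is read from the percentages. The list was drawn up by hand from known family members and includes MFS16 and MFS17 for their names alone. No probe of VGlut, the vesicular glutamate transporter, was found in the annotation used here, and the phosphate cotransporter gene NaPi-T had no value on any array.

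CG3036, a gene without a named product, had centred ratios of 0.37, 0.25, 0.45 and 0.28 on arrays 1 to 4. All were above 0, in both dye orientations, as for 48 of the 366 features measured on every array (13.1%). The mean was 0.34 ± 0.09 (SD, n = 4) after centring and 0.34 ± 0.60 (SD, n = 4) on the deposited values, where the turned ratio of array 4 was -0.35. The SD of the centred ratios was larger than that of 3.55% of the 366 features. CG3036 did not pass limma's test, with an adjusted p of 0.286 after centring (unadjusted p = 0.0161) and of 0.994 on the deposited values. In the other reading the centred mean was -0.03 (limma adjusted p = 0.972). Thus 0 of 1 tested genes of the list beside CG15096 and MFS14 passed. The median of all features tested was 0.09 on the deposited values and 0.0037 after centring.

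The remaining 9 genes, MFS15 among them, were measured on array 1, array 2 or both, where the drug carried Cy5. On array 1, MFS9 was at 1.25, CG18788, the neighbour of dmGlut, at 1.19 and CG9254 at 0.94. MFS16 was at 0.66, CG2003 at 0.66, MFS12 at 0.64 and Picot, named as a predicted phosphate cotransporter, at 0.55, all below the array's median of 0.73. CG15096 was thus the highest and dmGlut clone 2 the lowest of the 13 clones of the list on that array. MFS14, at 1.17, lay below MFS9 and CG18788, and dmGlut clone 1, at 0.78, lay among the other genes. CG15096, MFS14 and dmGlut had been picked with these ratios known, so nothing is read from their places in the list on either array. On array 2 CG9254 and Picot were at -0.78 and -0.56, and MFS16 and MFS17 at 0.18 and 0.18. The order ran from both dmGlut clones at the bottom to MFS14 and CG15096 at the top of 9 clones. None of these genes was measured with the dyes swapped. When features on at least 2 arrays were fitted in limma, 7 of 2484 (0.282%) passed and 68 had a p under 0.05 before adjustment. Of the 4 genes of the list that this fit tested beside CG15096, MFS14 and dmGlut, namely CG3036, MFS16, Picot and CG9254, 0 passed and 0 had such a p.

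**Figure D3:**
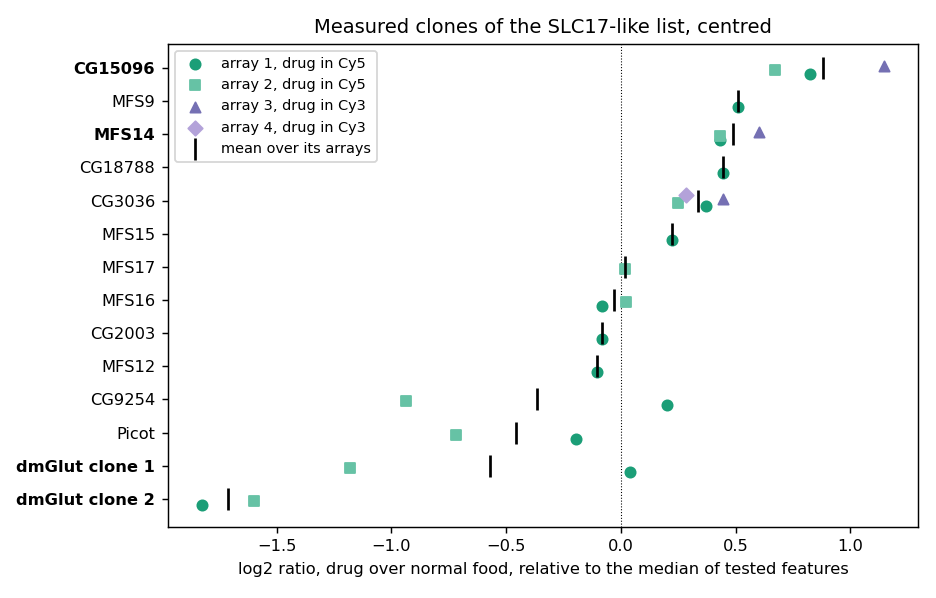
Log2 ratio of drug over normal food, relative to the median of the tested features of each array (horizontal axis), for the 14 measured clones of the SLC17-like list (vertical axis, CG15096, MFS14 and the dmGlut clones in bold); symbols are arrays and bars the mean over the arrays that measured the clone. CG15096 has the highest mean, 0.88, dmGlut clone 2 the lowest, -1.71, and CG3036 alone was measured on every array. The genes in bold had been picked with their ratios known.

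Of the few tested genes near these transporters in function, 0 passed limma's test. Of all features 0.51% passed on the deposited values and 1.43% after centring, so 0 among so few genes says little about them. The list of other carriers of the superfamily, which also holds a few genes of other families, had 3 tested genes of 57, one of which, HIP, encodes a chaperone partner and no carrier and had been listed in error. The carriers were hrm, a monocarboxylate transporter, at a centred ratio of -0.12 ± 0.13 (SD, n = 4), and nebu, a glucose transporter, at 0.12 ± 0.24 (SD, n = 3). On the deposited values they were at -0.11 and 0.34. Of 31 amino acid transporter genes 1 was tested, JhI-21, at 0.05 ± 0.32 (SD, n = 4) after centring. Their limma adjusted p lay between 0.727 and 0.932 after centring, and limma gave 0 of them a p under 0.05 before adjustment on either set of values.

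Of 29 genes of glutamate handling, the metabolite in the name of dmGlut, 13 had a value and 7 were tested. Of these 0 passed on deposited or centred values, and before adjustment limma gave a p under 0.05 to 0 and 2 of them, beside 26 and 119 of all 980 features. The pair was Gabat, the GABA transaminase, at -0.50 ± 0.38 (SD, n = 4) after centring, and the glutamine synthetase gene Gs2, at -0.35 ± 0.31 (SD, n = 4). The ratio of Gabat was below 0 on 4 of 4 centred arrays and that of Gs2 on 3 of 4. In the other reading Gabat was at 0.55 as deposited and 0.11 centred, and Gs2 at 0.29 and -0.16. The median of the list was -0.12 on the deposited values and -0.03 after centring, beside the medians of all features given above. Read the other way it was 0.43 and 0.05, beside medians of all features of 0.40 and -0.01.

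By the nearness of centred ratios over arrays 1 to 3, among 421 clones with 1 gene name, those most like CG15096 were GstD1, a glutathione S-transferase, Cyp6a20, a cytochrome P450, and pst. Their root mean square differences from it were 0.26, 0.38 and 0.39, and MFS14 came next at 0.41. Most like MFS14 were UGP, a UTP-glucose-1-phosphate uridylyltransferase, CG15814 and pst, at 0.07, 0.07 and 0.08. Seen from MFS14, CG15096 came 107th. These likenesses rest on 3 arrays that the clones share. dmGlut, measured on 2 arrays, was not compared in this way.

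Head tissue was represented in the values: 6 of the 7 photoreceptor markers on the array and 3 of the 3 neuronal ones had a value, which the authors' filters give only to spots above background. The array gives ratios and not levels, so the amount of each transcript is unknown. Of fat body markers 5 of 7 had a value, among them the storage protein gene Lsp2, of muscle markers 2 of 3, of glial markers 2 of 3, and of gut markers 1 of 2, Amyrel. The limma fit tested 4 photoreceptor, 2 fat body and 2 muscle markers, and 1 each of neuron, glia, gut and testis. No marker among them passed on deposited or centred values. Of all features 0.51% and 1.43% passed, so 0 among so few says little about the tissues. Centred fat body ratios ran from -1.07 to 0.44 on array 1 and from -0.0035 to 0.40 on array 2. On arrays 3 and 4 they ran from -0.53 to 0.48 and from 0.31 to 0.47. Photoreceptor ratios on arrays 1 to 4 ran from -0.39 to 0.58, -0.32 to 0.28, -0.96 to -0.11 and -0.355 to 0.31. Muscle ratios ran from -0.35 to -0.18, -0.09 to 0.14 and -0.84 to -0.38 on arrays 1 to 3, with -0.68 on array 4. Neuronal ratios spanned 0.02 to 0.11 on array 1 and -0.21 to 0.31 on array 2, with 0.02 and 0.25 on arrays 3 and 4. Glial ratios spanned -0.63 to -0.15 on array 1 and -0.48 to 1.32 on array 4, with -0.38 and 0.09 on arrays 2 and 3. Amyrel was at 0.19, -1.17 and 1.24 on arrays 1 to 3. The testis gene ocn, the 1 measured marker of reproductive tissue, was at 0.23, 0.34 and 0.74 on these arrays. A centred ratio above 0 on each of them was found for 19.9% of the 779 features measured there, so nothing is read from this 1 gene. The tubule marker Oatp58Dc was at 0.27 on array 1, its only array. The part of other tissues in the ratios of the transporters was not tested.

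**Figure D4:**
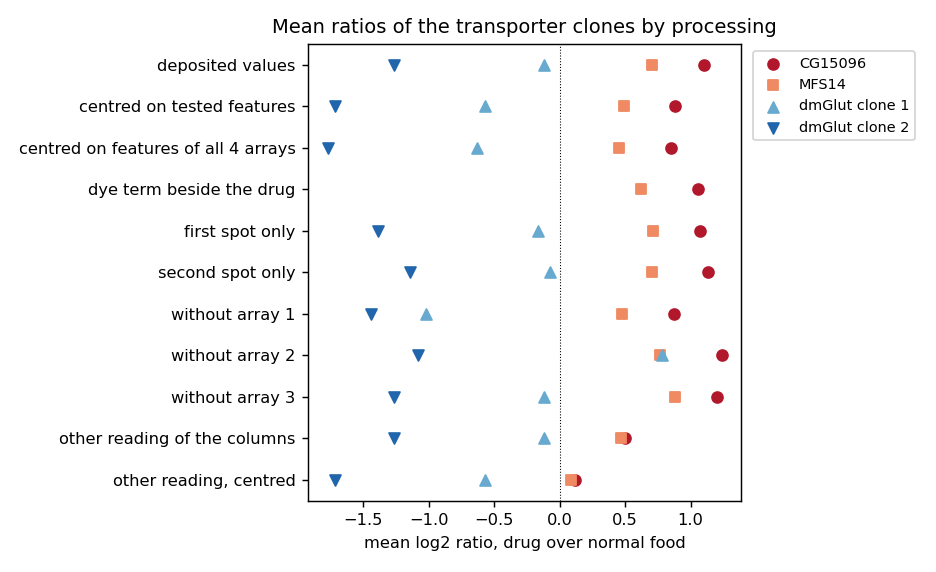
Mean log2 ratio of drug over normal food (horizontal axis) of each transporter clone under each way of processing (vertical axis); a symbol is the mean over the arrays that measured the clone, and dmGlut has no value with a dye term. In the 9 settings plotted with the swapped columns turned, CG15096 lies between 0.85 and 1.24 and MFS14 between 0.46 and 0.88, and in the other reading after centring they lie at 0.12 and 0.087.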

How the data were processed

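Per the series' design text, the authors quantified the slides with GenePix Pro 6.0, normalized ratios in Acuity 4.0 and filtered spots on signal-to-noise, saturation, uniformity and flags. The deposited values, 1 column per array, were taken as log2 ratios; the log base, the numerator, any centring and the genome build are not given in the sources read. Deposited columns had medians of 0.73, 0.01, 0.18 and 0.59 over clones.

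Neighbouring spots were averaged into 13824 features. Of 27648 spots 12430 had no gene symbol, 102 had several and 15116 had 1, of which 14894 matched RefSeq's Release 6 table by Entrez number. Those measured on at least 3 arrays were fitted with limma 3.58.1 in R 4.3.3 (lmFit, eBayes; 1 class against 0, two-sided, Benjamini-Hochberg over 980 features); the code was tested on simulated data. Without centring, eBayes estimated 1 common variance for all features. The SD is over arrays. Named beside the chosen transporters are all other measured SLC17-like genes, up to 3 tested genes of each other list, and the nearest clones. The members and lists were chosen with earlier results of these data known. Amyrel, ocn, Oatp58Dc and Lsp2 were named after their values were seen. No sequences were used here.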

Additional observations from a re-analysis of the deposited data

How the results depend on the processing

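The ratio of CG15096, 1.10 on the deposited values, became 0.50 when the columns were read as already turned and 0.12 with centring as well. That of MFS14, 0.71, became 0.087 under the last of these. Other settings moved either by less than its SD over arrays, and for dmGlut, at -0.69 over both clones, all settings did. Leaving out each array in turn gave 0.87 to 1.24 for CG15096, 0.48 to 0.88 for MFS14 and -1.23 to -0.15 for dmGlut, whose clone 1 was 0.78 without array 2 and -1.02 without array 1. Clone 2 of dmGlut taken alone, at -1.26 on the deposited values, moved by more than its SD of 0.25 with centring. It was at -1.71 and -1.77 under the 2 ways of centring. The count of features passing limma, 5 on the deposited values, was 14 after centring on the tested features, 9 after centring on those of all 4 arrays, 32 and 0 in the other reading without and with centring, 7 among features on at least 2 arrays, 2 among features measured on all 4 arrays, and 0 in the unmoderated test, which gave 21 a p under 0.05 before adjustment. It was 1 to 5 with an array left out, 1 without array 2 and 3 without array 3. After centring it was 5, 23, 7 and 11 without arrays 1 to 4, a check chosen after seeing the data. The 1 SLC17-like gene that passed after centring on the tested features was CG15096, and 0 passed on the deposited values without a dye term. CG15096 had been picked from this contrast, so nothing is read from its passing. In the other lists 0 passed under every alternative run. No dye term could be fitted for dmGlut, which was measured in 1 orientation. The ratio within an array is already the paired difference of its pools, so the fit against 0 is the paired analysis. The cause of these changes was not tested.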
